A study of Caenorhabditis elegans with 2 samples.

Results

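The nuclear genes for lysine, arginine and histidine tRNAs, the carriers of the 3 basic amino acids, were described by their occupancy with RPC-1, the biggest subunit of the enzyme RNA polymerase III (Pol III). They were taken from RefSeq's annotation of WBcel235 (the ce11 assembly) as every nuclear tRNA gene that is not a pseudogene and whose product is tRNA-Lys, tRNA-Arg or tRNA-His. This gave 110 of 612 nuclear tRNA genes, of which 46 were for Lys, 44 for Arg and 20 for His. Occupancy came from chromatin immunoprecipitation with sequencing (ChIP-seq) of whole Caenorhabditis elegans young adults, males and females pooled, of strain YL517. That strain is a transgenic line that stably expresses RPC-1 with GFP-FLAG at its C terminus, and its chromatin was sonicated. The 2 libraries form 1 group and are labelled biological replicates 1 and 2, with a biosample record each, and how the cultures were grown is not stated. A free-text label gives the target as PRC-1, whereas the strain, antibody and line labels give rpc-1, and the latter was followed. The worms were whole, so a signal averages over all tissues and the germ line. With no other group of libraries, values were described and no test was made. A gene's value was the highest signal value among peaks whose summit lay within 100 bp of it. Signal values are the peak caller's scores as the authors deposited them, with no fixed range, so they were compared only within 1 list. Across lists a gene's percentile among the 612 tRNA genes was used, on a scale of 0 to 100 with the highest gene at 100. Genes with no summit were tied at the bottom, at 4.34 in the optimal list.

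Pol III reads tRNA genes from a promoter inside the gene. The general factor TFIIIC binds 2 internal blocks, the A box and the B box, and places TFIIIB upstream of the start, which in turn recruits Pol III, and a run of T on the coding strand ends transcription. Each tRNA pairs with codons through its anticodon, here written as the DNA letters of the gene (Lys-CTT, for example). In eukaryotes the first anticodon base is often modified: the A of Arg-ACG becomes inosine, which lets 1 tRNA read several codons, and the T (U in the RNA) of Lys-TTT carries a group that the Elongator complex starts. The anticodon was read from the gene by its stem and loop in 108 of the 110 genes, and 2 His genes, K01A6.t1 and Y113G7B.t1, were left unassigned. There were 31 Lys-CTT, 15 Lys-TTT, 19 Arg-ACG, 10 Arg-TCG, 8 Arg-TCT, 4 Arg-CCT, 2 Arg-CCG, 1 Arg-GCG and 18 His-GTG genes. They share few sequences. The 110 genes had 35 distinct sequences, 86 genes belonged to 11 sets of identical copies, and 24 genes had no identical copy among the nuclear tRNA genes.

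Of the sets of identical sequence, 4 are shown by the gene of highest signal in each, since the results below turn on how far identical copies differ. E03E2.t3 is a Lys-TTT gene at chrX:5713652-5713724 on the plus strand and had the highest value of the 110 genes. C18A11.t2 is an Arg-ACG gene at chrX:8036685-8036757 on the minus strand, and C11G10.t1 an Arg-TCT gene at chrX:15146562-15146634 on the minus strand. Y65A5A.t4 is a His-GTG gene at chrIV:16400896-16400967 on the plus strand and had the highest value of the His genes. Sequences are from RefSeq WBcel235, 5′ to 3′ on the coding strand, and capitals mark first the anticodon and then the B box, searched as GTTCNANNC.
E03E2.t3: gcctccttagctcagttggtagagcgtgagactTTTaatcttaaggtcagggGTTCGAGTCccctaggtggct
C18A11.t2: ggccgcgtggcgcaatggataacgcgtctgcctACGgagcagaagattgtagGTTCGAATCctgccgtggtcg
C11G10.t1: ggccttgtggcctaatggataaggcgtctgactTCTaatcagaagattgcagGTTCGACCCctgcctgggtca
Y65A5A.t4: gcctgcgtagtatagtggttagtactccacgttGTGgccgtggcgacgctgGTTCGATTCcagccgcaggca
The 4 genes carried 14, 10, 2 and 11 identical copies among the nuclear tRNA genes, each counting itself, and all 4 held the B box motif.

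Most of the 110 genes were occupied, to about the share of tRNA genes at large, and the 3 isotypes stood at different levels. The optimal list was derived from both replicates through the irreproducible discovery rate, which compares peak ranks. A summit of this list lay within 100 bp of 99 genes (90.0%), while the same was true of 91.2% of all 612 tRNA genes. A gene with such a summit is called occupied here, though it need not have a summit in each replicate list. A gene without one can still have a weaker peak or overlap a peak interval. The shares were 45 of 46 for Lys (97.8%), 40 of 44 for Arg (90.9%) and 14 of 20 for His (70.0%). The pooled list, which also holds weaker peaks, had a summit at 101 of the 110 genes, beside 92.5% of all tRNA genes, and each replicate list alone gave that same share of all tRNA genes. The occupied genes among the 110 had signal values with a median of 3060.3 and quartiles at 2107 and 4050.1, and over all occupied tRNA genes the median was 3073 and the quartiles 2041 and 4085. By isotype the median was 3501 for Lys, 3042 for Arg and 2133 for His.

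Ranked among all tRNA genes, with genes without a summit at the bottom, Lys genes had a median percentile of 63.0 in the optimal list, 63.3 in replicate 1 and 61.9 in replicate 2. Arg genes lay near the middle, at 49.0, 47.2 and 52.1. His genes lay lowest, at 27.9, 28.2 and 29.9. The gaps between these 3 isotypes were larger than the gap between the 2 replicates for each. Among the 20 isotypes, by the same median, Lys came 7th in the optimal list and 6th in each replicate, and Arg came 11th, 13th and 10th. His came 20th, that is last, in all 3 lists. The next lowest isotype was Pro, at 33.5 in the optimal list, 33.3 in replicate 1 and 35.2 in replicate 2.

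**Figure D1:**
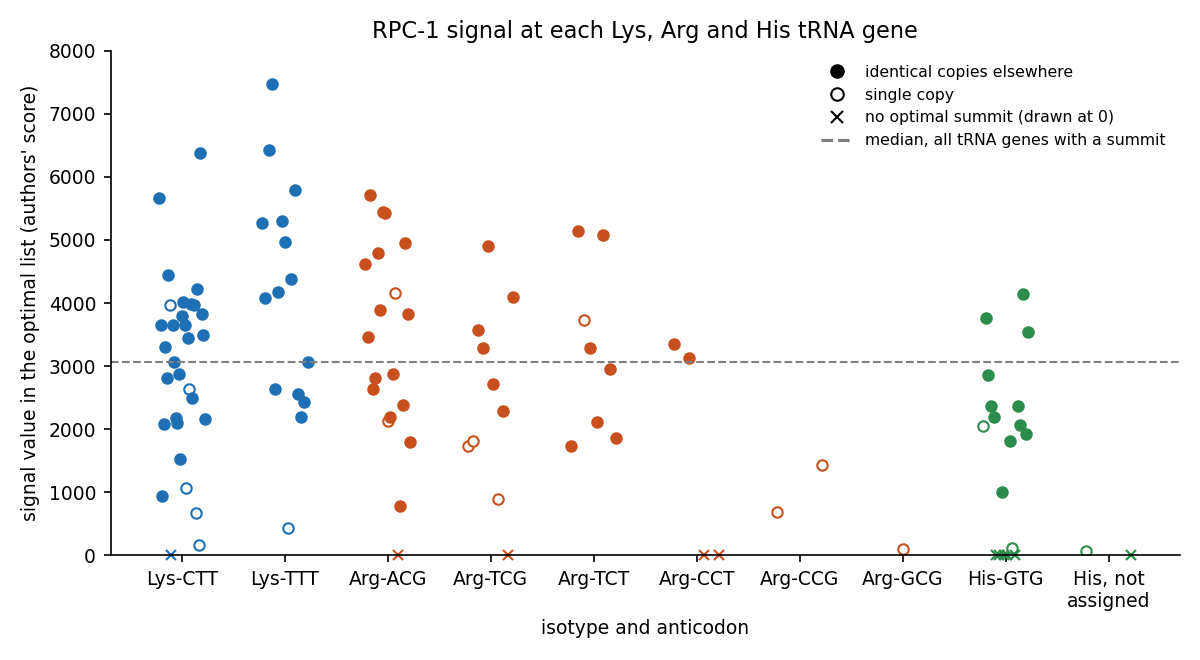
Signal value in the optimal list (vertical axis, the authors' score, no unit) of each of the 110 genes by isotype and anticodon (horizontal axis). Filled points have identical copies elsewhere, open points are single-copy genes, crosses at 0 are genes with no optimal summit within 100 bp, and the dashed line is the median of all occupied tRNA genes (3073); the 5 occupied genes below 500 are all open points.

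Lysine genes split by anticodon, and both kinds were spread widely. The 15 Lys-TTT genes were all occupied, with a median signal value of 4177 and a range from 431 to 7467, and their median percentile was 79.9 in the optimal list, 78.4 in replicate 1 and 81.0 in replicate 2. Of the 31 Lys-CTT genes 30 were occupied, with a median of 3374 and a range from 161 to 6379, and the median percentiles were 59.9, 60.2 and 54.7. In both replicates, then, the Lys-TTT median over all chromosomes stood above the Lys-CTT median by more than the replicates differed. Among identical copies on autosomes, that order was reversed in the optimal list and replicate 1. There 9 Lys-TTT genes had a median of 3070 (percentiles 54.3, 48.8 and 62.2) and 15 Lys-CTT genes 3501 (63.6, 66.4 and 61.6). On X, 5 identical Lys-TTT genes had 5301 and 10 identical Lys-CTT genes 3545. The strongest gene, E03E2.t3, had a signal value of 7467 in the optimal list, 4355 in replicate 1 and 3115 in replicate 2, and was 4th among the 558 occupied tRNA genes. The second, C33G3.t2, also Lys-TTT on X (chrX:14063946-14064018), had 6425, 3821 and 2610.1 and was 10th. The third, W03G11.t1, the strongest Lys-CTT gene (chrX:12106147-12106219), had 6379, 3824 and 2576 and was 11th. None of these 3 lay within a protein-coding gene. The lowest occupied Lys-TTT gene, F53B6.t1, had 431 in the optimal list, 267 in replicate 1 and 174 in replicate 2, and its summit lay 106 bp downstream of its first base, beyond its end.

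Of the 10 highest genes 7 were for Lys and 3 for Arg, with none for His. The other Lys genes were T23F1.t1 on V at 5799, B0350.t1 on IV at 5663, F43C9.t1 on X at 5301 and C09B9.t1 on IV at 5263. T23F1.t1 shared its summit with a Pro tRNA gene, T23F1.t2, 67 bp away on the other strand, so its value cannot be given to either gene alone. The 3 Arg genes were all Arg-ACG on X: C18A11.t2 at 5712, F09B9.t2 at 5448 and F12D9.t4 at 5429.5. F09B9.t2 lies in an intron of unc-115, F12D9.t4 in an intron of stg-2, F43C9.t1 in an intron of F43C9.2 and C09B9.t1 in an intron of dgs-1. The 7 high Lys genes came from both sequence families, 5 being Lys-TTT and 2 Lys-CTT.

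Arginine genes ranged by anticodon from well occupied to weak. The 19 Arg-ACG genes, 18 of them occupied, had a median signal value of 3641 and a median percentile of 62.7 in the optimal list, 64.2 in replicate 1 and 62.5 in replicate 2. The 8 Arg-TCT genes were all occupied, with a median of 3122 and percentiles of 55.2, 53.9 and 51.2. Of the 10 Arg-TCG genes 9 were occupied, with a median of 2719.8 and percentiles of 41.9, 41.1 and 42.1. F35H8.t1 on II was the highest Arg-TCG gene at 4898 (2942 in replicate 1 and 1956 in replicate 2). F49E7.t1 on X was the lowest at 886, with 474 in replicate 1 and no summit in replicate 2, the only one of the 110 genes found in 1 replicate list and not in the other. The rare anticodons were lower or mixed. The 2 Arg-CCG genes had 695 (Y46G5A.t1, in an intron of snrp-200 on II) and 1436 (ZK380.t1 on X). Of the 4 Arg-CCT genes, F28H6.t1 had 3343 and F29C4.t1 3123, and the other 2 had no optimal summit. The lone Arg-GCG gene, W05B2.t1, had 93.9 in the optimal list, 55.5 in replicate 1 and 31.0 in replicate 2.

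Histidine genes had the lowest values of the 3 isotypes. The 18 His-GTG genes had 13 with an optimal summit, a median signal value of 2193 and a median percentile of 30.4 in the optimal list, 31.3 in replicate 1 and 30.8 in replicate 2. Y65A5A.t4 on IV was the highest, with 4138 in the optimal list, 2459.5 in replicate 1 and 1807 in replicate 2. It was 129th among the 558 occupied tRNA genes. Of the 6 His genes with no optimal summit, 4 lay in a run of 6 His-GTG genes on X (F28H6.t2 to F28H6.t7). By overlap of a peak interval, which can span neighbouring genes, 18 of the 20 His genes were covered. With only genes that have at least 50% of their 36-base words unique in the genome, 100 bp flanks included, the His median percentile was 30.4, still the lowest of these 3 isotypes.

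Genes of identical sequence did not have identical signal. The 6 sets of 5 or more copies held 71 of the 110 genes. In the set of 25 Lys-CTT genes all were occupied, from 947 at C17D12.t1 to 6379 at W03G11.t1, with a median of 3501. C17D12.t1 had 769 in replicate 1 and 566 in replicate 2, so its place at the low end was alike in both. It lies in a run of 3 tRNA genes, and its summit lay 102 bp downstream of its first base, beyond its end. The 14 identical Lys-TTT genes ran from 2196 at Y70C5A.t1 to 7467 at E03E2.t3, with a median of 4279. Of 11 identical His-GTG genes 7 were occupied, from 1003 at F28H6.t5 to 4138 at Y65A5A.t4. A set of 10 Arg-ACG genes, all on X, ran from 786 at K01A12.t3 to 5712 at C18A11.t2 with a median of 4253. K01A12.t3 lies in a run of 5 tRNA genes. The lowest gene of this set with no tRNA gene within 1 kb was C14F11.t1 at 3458, named after its values were seen. A second set of 6 Arg-ACG genes, all on autosomes, differed from the first by 1 base edit and ran from 2193 at F13G11.t1 to 4791 at F08G5.t1 with a median of 2724. The 5 identical Arg-TCT genes ran from 1740.3 at C04F2.t1 to 3283 at F41D9.t1, with a median of 2111. The other Arg-TCT set, of 2 copies that differ from these by 1 edit, was higher: C11G10.t1 had 5138 and F41D9.t4 5083. Of all 86 genes with identical copies, the 51 with no tRNA gene within 1 kb had values from 1522 to 7467. The 30 occupied ones with such a neighbour had values from 786 to 5799.

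Reads inside identical copies cannot be placed by the gene body alone. Outside the His set, the genes of these 6 sets had 70.6% to 82.8% of their 36-base words unique once 100 bp of flank was included, and in the His set 0% to 79.3%. How reads with several possible places were handled is not given in the sources used here, and its part in these values was not tested.

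**Figure D2:**
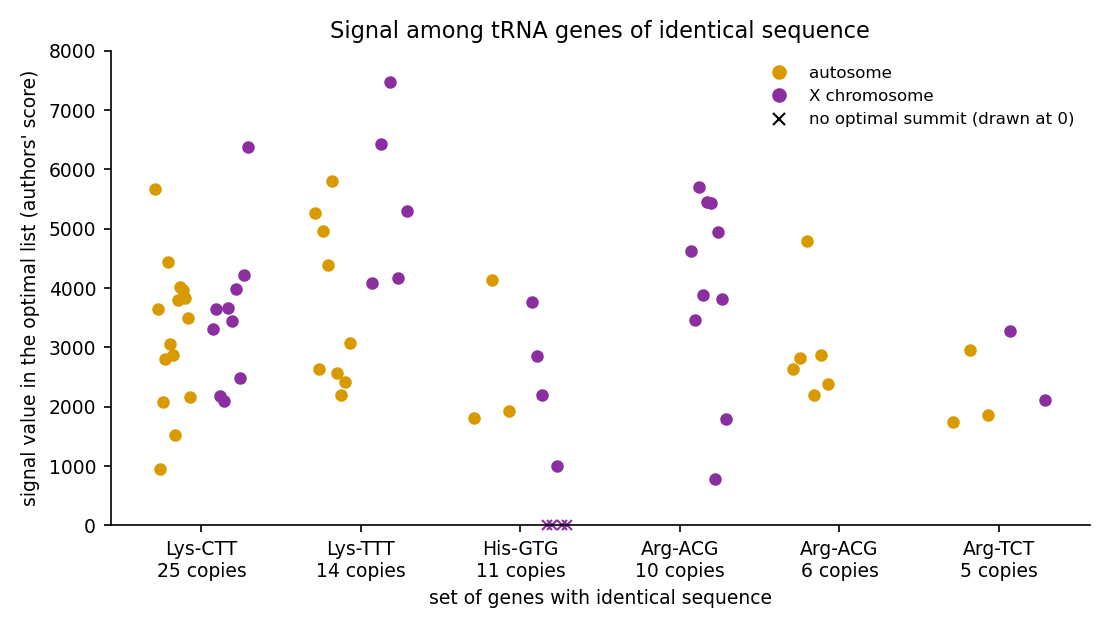
Signal value in the optimal list (vertical axis, the authors' score, no unit) of every gene in the 6 sets of 5 or more identical genes (horizontal axis), with autosomal and X genes in different colours and genes with no optimal summit as crosses at 0. The Lys-TTT genes on X lie between 4084 and 7467 and those on autosomes between 2196 and 5799, while the Lys-CTT genes lie between 2102 and 6379 on X and between 947 and 5663 on autosomes.

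Single-copy genes held nearly all of the weak values. The 24 single-copy genes had 18 with an optimal summit, a median signal value of 1249.96 and a median percentile of 14.6 in the optimal list, 14.2 in replicate 1 and 12.4 in replicate 2. The 86 genes with identical copies had 81 with a summit, a median of 3343 and percentiles of 59.2, 58.8 and 57.2. Over all 612 tRNA genes, 120 of 143 single-copy genes (83.9%) and 438 of 469 copied genes (93.4%) had an optimal summit. Their median signal values were 2524 and 3237, and their median percentiles in the optimal list 31.5 and 54.5. All 5 occupied genes below 500 were single-copy: K01A6.t1 at 70.2, W05B2.t1 at 93.9, Y17G9A.t1 at 114, T10B9.t1 at 161 and F53B6.t1 at 431. The lowest copied gene, K01A12.t3, had 786. The pattern had exceptions, since the single-copy genes F42G10.t1 and F21C3.t1, each 1 edit from a copied gene, had 4157 and 3969. These 2 were named after their values were seen.

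Of the 5 genes below 500, 4 were 8 or more edits from any copied gene of the same isotype. Edits (substituted, inserted or lost bases) to the nearest copied gene were 1 to 5 for 12 of the 24 genes and 6 or more for the other 12. The first 12 had 10 with a summit, a median of 1975 and none below 200, though F53B6.t1, 2 edits away, had 431. The second 12 had 8 with a summit, a median of 415 and 4 below 200. T10B9.t1 (Lys-CTT) was 8 edits away, Y17G9A.t1 (His-GTG) 10, W05B2.t1 (Arg-GCG) 25 and K01A6.t1 (His, unassigned) 39. Their values were low in both libraries. T10B9.t1 had 97.6 in replicate 1 and 68.5 in replicate 2, Y17G9A.t1 58.9 and 52.7, and K01A6.t1 37.6 and 34.0. The lowest peak of the whole optimal list had a signal value of 60.0, so K01A6.t1 lay just inside that list.

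The sequences of 7 genes that were weak or had no optimal summit are shown because they set them apart from the copied genes above. T10B9.t1 lies at chrII:9773654-9773728 on the plus strand, in an intron of ZK1321.4, and W05B2.t1 at chrIII:10961850-10961917 on the minus strand, in an intron of W05B2.2. Y17G9A.t1 lies at chrIV:4861754-4861827 on the plus strand, outside any protein-coding gene. F37A4.t1 (chrIII:6724135-6724220) and Y102E9.t1 (chrIII:6726991-6727076) both lie on the minus strand, 2771 bp apart, in introns of F37A4.1 and wdr-4. K01A6.t1 lies at chrIV:11721149-11721236 on the plus strand in an intron of magi-1, and Y113G7B.t1 at chrV:20219301-20219370 on the plus strand, outside any protein-coding gene. Capitals mark the anticodon, where assigned, and the B box GTTCNANNC, where present.
T10B9.t1: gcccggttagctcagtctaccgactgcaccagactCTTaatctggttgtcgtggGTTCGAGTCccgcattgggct
W05B2.t1: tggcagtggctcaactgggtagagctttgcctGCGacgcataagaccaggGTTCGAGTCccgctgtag
Y17G9A.t1: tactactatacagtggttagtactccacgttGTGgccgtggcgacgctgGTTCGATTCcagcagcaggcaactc
F37A4.t1: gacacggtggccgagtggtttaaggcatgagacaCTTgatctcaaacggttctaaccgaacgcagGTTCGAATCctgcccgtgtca
Y102E9.t1: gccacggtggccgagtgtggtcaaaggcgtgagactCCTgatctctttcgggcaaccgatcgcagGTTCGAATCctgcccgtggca
K01A6.t1: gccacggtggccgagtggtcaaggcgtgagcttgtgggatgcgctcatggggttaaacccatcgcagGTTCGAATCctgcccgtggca
Y113G7B.t1: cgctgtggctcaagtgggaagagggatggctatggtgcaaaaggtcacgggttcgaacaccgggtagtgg
The genes F37A4.t1, Y102E9.t1 and K01A6.t1 were 86, 86 and 88 bp long and the only ones of the 110 genes over 80 bp. Such length is usual for Leu and Ser tRNAs, which have a long variable arm. The Lys gene F37A4.t1 was 16 edits from the Arg gene Y102E9.t1 and 37 from the nearest copied Lys gene, and the His gene K01A6.t1 was 16 edits from an Ile gene, C36F7.t2. All 3 had every 36-base word unique. F37A4.t1 had no optimal summit and a pooled value of 30.0 (15.5 in replicate 1 and 16.99 in replicate 2), and Y102E9.t1 a pooled value of 34.0 (15.2 and 16.6). Of the tRNA genes of other isotypes over 80 bp, 102 (90.3%) had an optimal summit, with a median of 2787.

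The 11 genes with no optimal summit fell into several kinds. F37A4.t1 and Y102E9.t1, above, had weaker peaks in the pooled and both replicate lists. The other 9 had no summit within 100 bp in any list. In the run of 6 His-GTG genes on X (chrX:14135045-14137010), which forms 3 pairs of genes facing each other, F28H6.t7, F28H6.t3, F28H6.t6 and F28H6.t4 had none. Their share of unique 36-base words was 33.3%, 0%, 11.8% and 0%. The 2 outer genes of the run were occupied: F28H6.t2, with 73.8% unique words, had 2193 in the optimal list, 1248 in replicate 1 and 947 in replicate 2, and F28H6.t5, with 50.6%, had 1003, 589.9 and 418. These 4 genes without a summit were the only ones of the 110 with under 50% unique words. The part of this repetition in their lack of a summit was not tested.

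Of the remaining 5, K01A12.t1 (Arg-ACG), F49E7.t3 (Arg-TCG) and Y40H7A.t1 (His-GTG) each stood beside another tRNA gene, at 89, 155 and 239 bp, and each overlapped a peak interval within its 100 bp flanks. Their nearest optimal summits were 385, 219 and 337 bp away. Y113G7B.t1, the unassigned His gene, overlapped a peak of signal value 203 in the same way, with the nearest summit 248 bp away and no tRNA gene within 128427 bp. Y75D11A.t2 (Arg-CCT, on X) had no optimal peak interval either, and its nearest optimal summit was 11164 bp away. It had 69.0% unique words, a 12-edit distance to its nearest copied gene, and no T run after its end. Of all 11 genes, 6 were single-copy and 7 had another tRNA gene within 1 kb.

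The genes stood alone more often than in company, as did tRNA genes at large, of which 236 of 612 had another within 1 kb. Another tRNA gene lay within 1 kb of 41 of the 110 genes, in 24 runs, and 21 of them were in the 10 runs of 3 or more tRNA genes. The 69 genes with no such neighbour had 65 with an optimal summit, a median of 3306 and a median percentile of 55.8, against 34 of 41, 2559 and 37.5 for the genes with one. Over all tRNA genes, 362 of 376 without a neighbour and 196 of 236 with one had an optimal summit. The difference in median percentile was -18.3 in the optimal list, -20.3 in replicate 1 and -16.9 in replicate 2, and -13.9 over all tRNA genes. It depended on how a peak was tied to a gene: by overlap with the peak interval, which can span several genes, it became 3.85. By that measure all genes of a run had the same value in 19 of the 24 runs.

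Within the runs, values were uneven. On X a run of 5 tRNA genes held 3 Cys genes between K01A12.t1, with no summit, and K01A12.t3, with 786 (488 in replicate 1 and 302 in replicate 2), and both Arg genes lie in introns of K01A12.3. The run of 3 Lys-CTT genes in an intron of pix-1 had 2635 at K11E4.t4, 3989.8 at K11E4.t5 and 2487 at K11E4.t6. In replicate 1 these genes had 1573, 2026 and 1514, and in replicate 2 they had 844, 1088 and 864, so K11E4.t5 was highest in each. F49E7.t3, F49E7.t1 and F49E7.t2, all Arg-TCG, had no summit, 886 and 2288. In spe-9 on chromosome I, C17D12.t1 and C17D12.t2 beside a Leu gene had 947 and 2075. The other 5 runs of 3 or more held 1 gene each, with 4962 at F49C5.t4, 4381 at K04C2.t3, 4791 at F08G5.t1, 4138 at Y65A5A.t4 and 2130.3 at F12D9.t5. On II 3 Lys-CTT genes, C16C8.t1, W09G10.t2 and W10G11.t1, each followed by a Thr gene on the same strand at 104, 93 and 83 bp, had 3651, 3832 and 3501. Each shared its summit with the Thr gene, so the value belongs to the pair. These 3 were named after their values were seen.

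Where a gene stood alone, the summit was placed narrowly. At the 65 occupied genes with no tRNA gene within 1 kb, the summit lay a median of 12 bp downstream of the first base, between quartiles at 10 and 14 bp, and 58 of the summits (89.2%) were inside the gene. The other 297 such tRNA genes had theirs at a median of 14 bp, between 11 and 16. At the 34 occupied genes with a neighbour the median was 62 bp, and 19 summits (55.9%) were inside the gene.

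**Figure D3:**
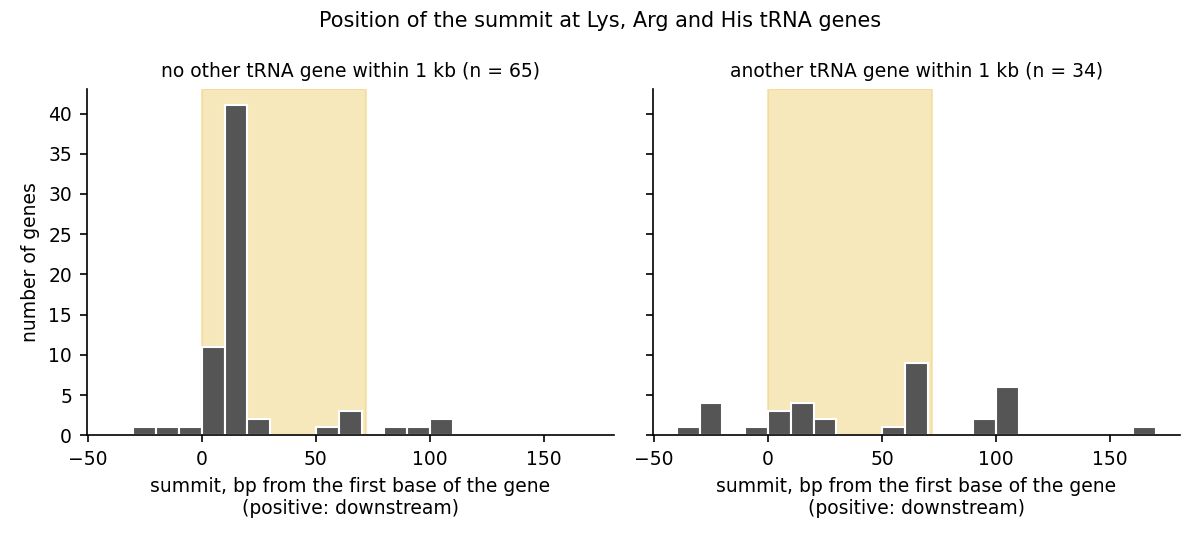
Number of genes (vertical axis) by the distance in bp from the first base of the gene to the summit of its optimal peak, positive downstream, in bins of 10 bp (horizontal axis). The left panel has the 65 occupied genes standing alone by that measure (no tRNA neighbour within 1 kb) and the right panel the 34 with one, and the shaded band is the body of a gene of 73 bp; the left panel piles up just inside the gene and the right panel is spread.

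Genes on X had a higher median percentile than those on autosomes in the optimal list, for Lys and Arg but not for His. Over all 110 genes the size of the difference was not alike in the 2 replicates. X held 54 of the 110 genes, beside 276 of all 612 tRNA genes. The 54 had 47 with an optimal summit, a median of 3441 and a median percentile of 59.2, against 52 of 56, 2812 and 44.0 on the autosomes. The difference of 15.2 was 14.5 in replicate 1 and 2.86 in replicate 2 alone. Over all tRNA genes the difference was 23.2. Of all tRNA genes, 246 of 276 on X (89.1%) and 312 of 336 on autosomes (92.9%) had an optimal summit, beside 87.0% and 92.9% of the 110 genes. Among members with no tRNA gene within 1 kb, the 30 on X had a median percentile of 71.7, with 74.3 in replicate 1 and 67.8 in replicate 2. The 39 such genes on autosomes had 38.6, 40.3 and 39.6, so here both replicates had X higher. By isotype the difference over all members was 13.3 for Lys, 10.5 for Arg and -12.6 for His, whose 9 genes on X include the run of 6. Of those 9 genes 4 had no optimal summit. The occupied His genes had a higher median signal value on X, 2859 for 5 genes, than on autosomes, 2053 for 9. For Arg the median percentile on X was 56.6 in replicate 1 and 50.9 in replicate 2, and on autosomes 46.2 and 52.9, so the direction turned in replicate 2. For Lys it was 65.1 and 65.9 on X and 57.2 and 59.0 on autosomes. Among identical Lys-TTT genes the 5 on X had a median of 5301 (percentile 94.6 in the optimal list, 95.3 in replicate 1 and 93.1 in replicate 2) and the 9 on autosomes 3069.8 (54.3, 48.8 and 62.2). The ranges overlapped. Among identical Lys-CTT genes, 10 on X had a median of 3545 and 15 on autosomes 3501.

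Nearly as many genes lay inside protein-coding genes as outside. There were 54 inside, all of them in introns, in 48 different host genes, and 31 were on the strand of the host and 23 on the other. Those inside had 51 with an optimal summit and a median percentile of 47.2, those outside 48 of 56 and 54.1. The difference in median percentile was -6.87 in the optimal list, -8.02 in replicate 1 and -5.24 in replicate 2, and -11.1 over all tRNA genes. For these it became 1.31 when peak intervals were used. Among members with no tRNA gene within 1 kb the gap was wider. The 40 inside had a median percentile of 48.8 in the optimal list, 48.1 in replicate 1 and 48.9 in replicate 2. The 29 outside had 69.7, 68.1 and 66.6. Genes on the host's strand had a median percentile of 46.3 and those on the other strand 48.1. By isotype the difference was -24.1 for Lys, -10.5 for Arg and 22.4 for His, the last again with the run of 6 outside any gene.

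**Figure D4:**
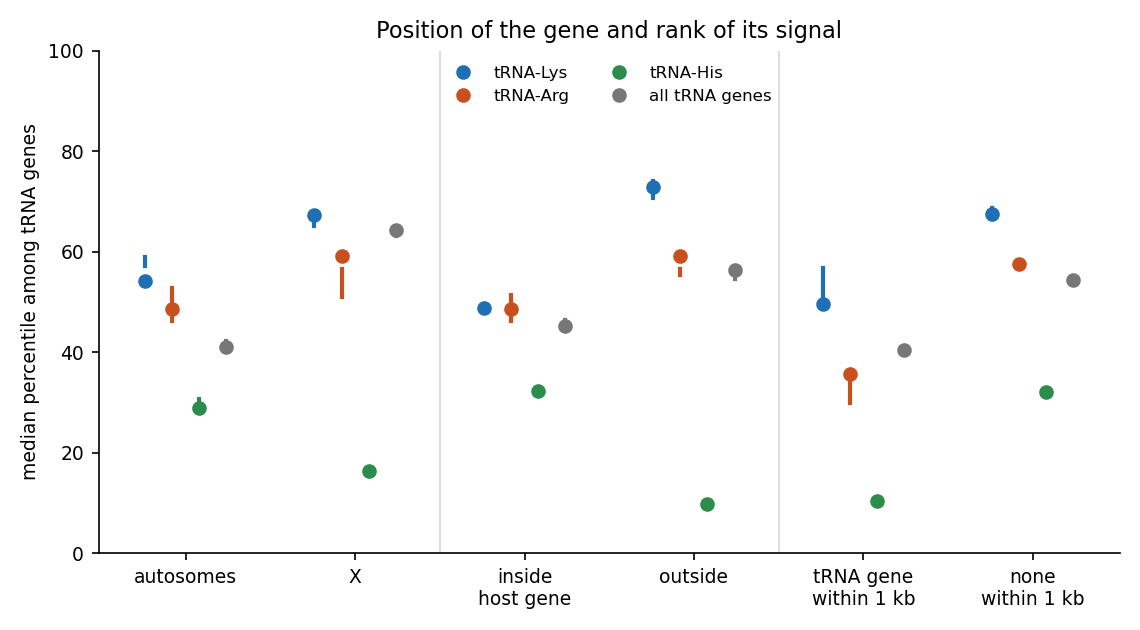
Median percentile among all nuclear tRNA genes (vertical axis, 0 to 100) for Lys, Arg, His and all tRNA genes by chromosome, host gene and neighbour (horizontal axis). Points are the optimal list and bars span the values of replicates 1 and 2; His genes are lowest in every group shown, and genes with a tRNA neighbour within 1 kb lie below genes without one for all 3 isotypes.

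The replicates ordered the genes alike. Of the 110 genes 100 were in both replicate lists and 9 in neither, and the Spearman rho of their signal values was 0.979 over those 100 genes. It was 0.984 over 559 tRNA genes. These are descriptions across genes, which share the libraries and a control, and are not independent. The median gap between the 2 percentiles of a gene was 2.05. The 3 genes farthest apart were M163.t2 (Lys-CTT), at 81.7 in replicate 1 and 66.6 in replicate 2, Y40H7A.t2 (His-GTG), at 44.2 and 29.5, and F55F3.t1 (Lys-CTT), at 36.3 and 50.7. Replicate 1 had the higher signal values, by a median ratio of 1.51 over replicate 2 for these genes and 1.52 for all tRNA genes, which is why percentiles were compared across lists.

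**Figure D5:**
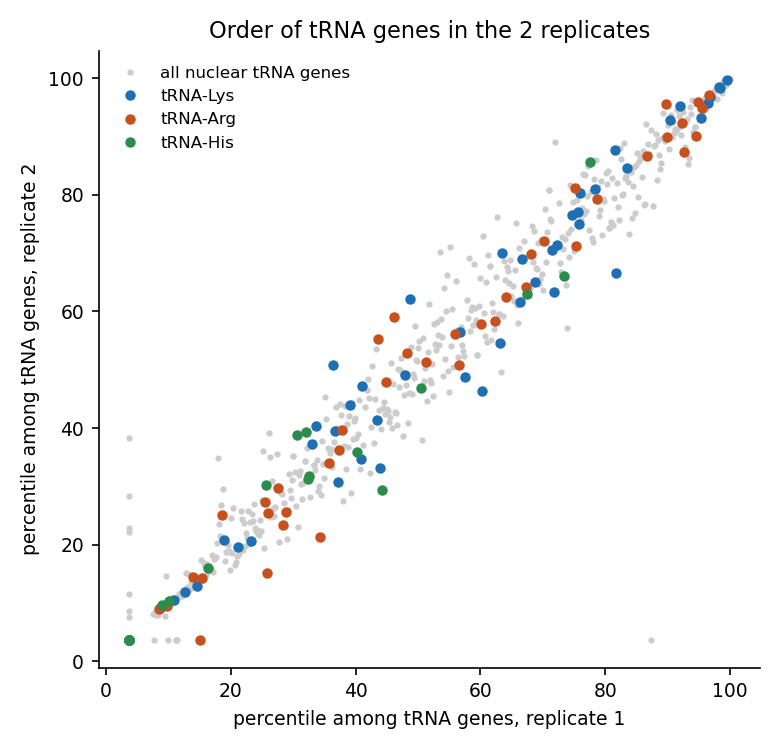
Percentile of each gene's signal value among the 612 nuclear tRNA genes in replicate 1 (horizontal axis) and in replicate 2 (vertical axis), with genes that had no summit tied at the bottom. Grey points are all tRNA genes and coloured points the Lys, Arg and His genes, which follow the diagonal with a largest gap of 15.1 among these 110.

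The promoter elements were nearly complete. The few genes that lacked one were weak or had no optimal summit, but other such genes lacked none. The B box motif GTTCNANNC was present on the coding strand of 107 of the 110 genes (97.3%), of 95.9% of all tRNA genes, of 78.9% of annotated tRNA pseudogenes and of 1.96% of windows of the same length 1000 bp downstream of each tRNA gene. It was missing in Y40H7A.t1, Y113G7B.t1 and K11E4.t2. The A box motif was present in 98.2% of the 110 genes, 97.6% of all tRNA genes, 95.7% of pseudogenes and 23.5% of those windows, so it separates genes from windows less. It was missing in T10B9.t1 and Y17G9A.t1. A run of TTTT began within 50 bp of the gene end in 109 of 110 genes, at a median of 5 bases after it. The same held for 98.9% of all tRNA genes, 92.8% of pseudogenes and 49.3% of the windows. The run was missing in Y75D11A.t2. The 6 genes lacking an element were all single-copy. Of them, 3 had no optimal summit, and the highest of the others was K11E4.t2 at 1064, named after its values were seen. Every element was present in K01A6.t1, W05B2.t1 and F53B6.t1, which were below 500. The same held for most genes with no optimal summit, F37A4.t1 and Y102E9.t1 among them. A match says only that these letters are present.

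Gene number and occupancy by anticodon can be set beside the codons. Over 19970 annotated coding sequences, AAA made up 59.7% of Lys codons and AAG 40.3%, while the matching genes were 15 for AAA (Lys-TTT) and 31 for AAG (Lys-CTT). The more frequent codon thus had fewer genes of its own anticodon. Those genes had the higher median signal value over all chromosomes, but not among identical copies on autosomes. For Arg, the codon AGA was most frequent at 29.7% and had 8 matching genes, CGA followed at 23.3% with 10, and CGT at 21.1% had 19. CGC (9.50%) had 1 matching gene, CGG (9.09%) 2 and AGG (7.32%) 4. Matching here means the exact complement of the codon. Since inosine lets Arg-ACG read several codons, these counts are not all the genes that serve a codon. For His, CAT made up 61.0% and CAC 39.0%, and all 18 assigned genes had the anticodon that matches CAC, which by wobble also reads CAT. These figures weight each gene of the genome once and take no account of how much it is expressed.

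A list of protein-coding genes that act on these tRNAs was looked at by RPC-1 summits near their starts. It held the synthetases that attach Lys, Arg and His (kars-1, rars-1, rars-2, hars-1), the Elongator subunits elpc-1, elpc-2 and elpc-3, tut-1, which takes part in the thiolation of wobble uridine, and hoe-1, the RNase Z that trims the end of tRNA precursors. Of these 9, 8 matched the annotation by symbol, hoe-1 not, and 0 of the 8 had an optimal summit within 500 bp of a transcript start, beside 1.72% of all protein-coding genes, a share at which 0 of 8 says nothing about these genes. In the pooled list, which also holds weaker peaks, 7 of the 8 had a summit there, beside 31.4% of all protein-coding genes, with signal values from 7.23 at elpc-2 to 18.5 at kars-1. The nearest optimal summit to any of them was 13317 bp from tut-1.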

How the data were processed

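RPC-1 ChIP-seq peaks from 2 biological replicates were used on ce11, in 4 lists. Per the descriptions deposited with the files, a replicate list came from that replicate with a control, the pooled list from both replicates, and the optimal list from these through the irreproducible discovery rate. The authors deposited a signal value per peak, a score of their peak caller, and the aligner, caller, versions and thresholds are unstated (not given in the sources used here). Depth is unknown, so no interval or floor is given. The lists held 2123 (optimal), 24907 (pooled), 26455 (replicate 1) and 27629 (replicate 2) peaks.

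Each gene took the highest score among summits within 100 bp. Percentiles run over the 612 nuclear tRNA genes, with ties averaged. The anticodon was read as the middle of a 7-base loop closed by a 5-pair stem, first with a T before it and at least 4 pairs (106 genes), then more loosely (2 genes). Python 3.11.15, NumPy 2.4.6, SciPy 1.17.1 and Matplotlib 3.10.9 were used, and the assignment was tested on simulated data. Alternatives changed the distance, the list, the replicate, the peak measure, the sharing of a summit and the uniqueness of the gene.

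Named genes are the 10 highest, all with no optimal summit, the highest and lowest of each anticodon and of each identical set of 5 or more, those in runs of 3 or more tRNA genes, and the 3 with the widest replicate gap. Members and lists were chosen with earlier results of these data known.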

Additional observations from a re-analysis of the deposited data

How the results depend on the processing

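The count of genes with an optimal summit, 99, was 95 to 105 under every alternative run, and leaving out either replicate gave 98. The Lys median percentile of 63.0 became 61.0 with summits within 200 bp, 64.0 by interval overlap and 64.8 with each summit given to its nearest tRNA gene, and ran from 61.9 to 63.3 over single replicates. The His median of 27.9 became 25.4 by overlap, 31.2 by nearest gene and 30.4 with mostly unique genes only, and ran from 28.2 to 29.9 over single replicates. The Arg median moved by less than its replicate SD of 3.47 under each alternative run. The difference of X minus autosomes, 15.2, ran from 2.86 (without replicate 1) to 14.5 (without replicate 2) over single replicates, and from 14.7 to 19.6 over the other alternatives. The difference for genes inside minus outside host genes, -6.87, reversed to 1.31 by interval overlap and moved to -12.8 with mostly unique genes. The difference for a neighbour within 1 kb, -18.3, reversed to 3.85 by overlap and was -15.4 with a limit of 2 kb. An interval can span several genes, and the cause of these changes was not tested. No paired analysis was possible because there is 1 group. Depth per library is unknown, and the scores show neither counts nor their error.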
